A study of Mus musculus with 16 samples.

Results

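The genes described here mark the 2 epithelia that line the brain ventricles next to the hippocampus, the choroid plexus and the ependyma. They were taken from a list of symbols, 22 of choroid plexus (Ttr to Lmx1a) and 13 of ependyma (Foxj1 to Pifo), and all 35 were found among the 55385 Ensembl identifiers of the count files. After a filter on low counts, 34 of the 35 were among the 16899 genes tested. The exception was Steap1, a metalloreductase family gene, which is described by its levels alone. RNA came from the dorsal hippocampus of mice whose hippocampus had received a recombinant adeno-associated virus (rAAV), either one for GFP (the control) or one for exogenous Dnmt3a2, a short isoform of the DNA methyltransferase Dnmt3a. All animals were put through contextual fear conditioning 3 weeks after the injection, and tissue was taken 1 or 5 days later. The 4 groups, Control_1d, Dnmt3a2_1d, Control_5d and Dnmt3a2_5d, had 4 libraries each. No group was uninjected or unconditioned, and the strain, sex and age of the mice and the promoter of the transgenes are not given here.

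The choroid plexus is a vascular tuft covered by a secretory epithelium that makes cerebrospinal fluid and releases carrier proteins into it, transthyretin above all. The ependyma is the single layer of cells on the ventricle wall, and its beating cilia move the fluid along. Both lie against the dissected tissue and neither is part of the hippocampal parenchyma. In bulk RNA, fewer cells of a type and less RNA per cell cannot be told apart, so a level here is a level of transcript in the dissected piece.

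Libraries held 28.6 to 30.0 M estimated counts, and the unit of level is CPM, the counts of a gene relative to its library total after TMM scaling in edgeR. The 3 counts used as the floor of detection correspond to 0.0987 to 0.106 CPM, and values under it rest on 3 counts or fewer. Dnmt3a, the gene delivered by the virus, stood at 34.8 ± 0.797 CPM in controls against 964 ± 238 CPM (SD, n = 4 each) at 1 day, and at 35.1 ± 2.15 against 1161 ± 110 CPM (n = 4 each) at 5 days, with no overlap. The hippocampal markers Prox1, of dentate granule cells, and Wfs1, of CA1 neurons, lay at 134.1 to 185.6 CPM and 208.4 to 341.2 CPM across the 16 libraries. Wfs1 averaged 309.6 CPM in controls against 255.9 CPM with Dnmt3a2 at 1 day, and 298.7 against 233.4 CPM at 5 days. Prox1 averaged 154.4 against 159.3 CPM and 164.3 against 141.3 CPM. The labels do not say whether libraries came from separate animals, so the p-values speak only of the spread among these 16 samples, which may be technical. Positions are on mouse build GRCm38, from the GENCODE M21 annotation.

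Promoters are shown for ependymal genes because several of them share letters that the choroid plexus genes mostly lack. RefSeq promoter windows on GRCm38.p6, 250 bases before to 50 after a gene's start, were matched for 26 of the 35 members. Ttr, Enpp2, Lbp, Sostdc1, Clic6, Folr1, Foxj1, Rarres2 and Rsph1 had no match. RFX factors act with Foxj1 in the program for motile cilia and bind the X-box, whose half-site was searched as GTTGCC, on both strands. Its full frame was searched on both strands as GT, any 2 bases, CC, any 3 bases, G, any base and AAC. The 2 motifs overlap where a full frame holds a half-site. The half-site lay in 7 of 12 ependymal windows, from 7 of 10 genes (Ccdc153, Dynlrb2, Enkur, Fam183b, Hydin, Pifo and Tekt1), in 4 of 23 choroid plexus windows, from 3 of 16 genes (Aqp1, Otx2 and Steap1), and in 12.5% of all 32851 windows. The full frame lay in the windows of Enkur, Hydin and Pifo, in none of the 23 choroid plexus windows and in 2.17% of all windows. The forkhead letters TGTTTAC were found in 1 ependymal gene (Ak7), in 1 choroid plexus gene (Prlr) and in 3.65% of all windows. The OTX letters TAATCC were found in 1 ependymal gene (Pifo), in 1 choroid plexus gene (Otx2) and in 7.06% of all windows. A match is a description of letters in these windows and not a measured site. The 5 stretches that follow run from 120 bases before the RefSeq start to 10 bases from it, 5′ to 3′ on the strand of the gene, with half-sites and full frames of either strand in capitals. Dynlrb2 also had a half-site in this range but is not shown, since its GENCODE M21 start lies upstream of the RefSeq start. The stretches of Tekt1 and Pifo are shown although they lie inside the genes as bounded by GENCODE M21. That annotation puts the 5′ ends of these genes further upstream, at 72362442 and 106014646. The stretches belong to Hydin (chr8:110266857-110266986, plus strand), Enkur (chr2:21205356-21205485, minus strand), Pifo (chr3:106001488-106001617, minus strand), Tekt1 (chr11:72361873-72362002, minus strand) and Fam183b (chr11:58801951-58802080, minus strand).
Hydin: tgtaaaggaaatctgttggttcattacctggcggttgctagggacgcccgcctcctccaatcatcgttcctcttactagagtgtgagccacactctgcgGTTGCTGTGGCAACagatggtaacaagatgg
Enkur: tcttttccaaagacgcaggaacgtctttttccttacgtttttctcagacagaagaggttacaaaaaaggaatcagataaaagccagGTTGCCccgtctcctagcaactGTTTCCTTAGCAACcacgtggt
Pifo: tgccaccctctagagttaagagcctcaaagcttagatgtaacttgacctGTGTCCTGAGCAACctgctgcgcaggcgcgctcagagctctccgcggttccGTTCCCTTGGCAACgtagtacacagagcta
Tekt1: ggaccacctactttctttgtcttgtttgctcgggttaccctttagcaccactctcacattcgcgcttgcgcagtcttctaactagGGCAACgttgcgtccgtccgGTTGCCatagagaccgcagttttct
Fam183b: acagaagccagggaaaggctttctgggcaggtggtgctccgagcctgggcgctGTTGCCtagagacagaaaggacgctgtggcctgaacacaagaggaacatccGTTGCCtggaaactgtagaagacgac

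Choroid plexus transcripts were concentrated in 2 of the 16 libraries, replicate 1 of Dnmt3a2_1d and replicate 1 of Dnmt3a2_5d. Both lay above all the other 14 libraries for 21 of the 22 choroid plexus genes, and the exception was Lmx1a, a LIM homeobox gene of the roof plate from which the epithelium arises. Dnmt3a2_5d replicate 1 was the highest of 16 for 19 genes and Dnmt3a2_1d replicate 1 for 3, Car12, Cldn1 and Lmx1a. Against the median of the other 14 libraries, levels in Dnmt3a2_1d replicate 1 were 1.205 to 78.2 times as high (median over the 22 genes 4.70) and in Dnmt3a2_5d replicate 1 they were 1.21 to 127 times as high (median 7.37). These 2 libraries, called choroid-rich below, were picked out by these levels, so the ratios describe them and carry no test. The 22 genes took 0.134% and 0.203% of all counts in them, and 0.0208% to 0.0469% in each of the others.

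Ttr encodes transthyretin, the carrier of thyroxine and of retinol-binding protein and the most abundant secreted product of the choroid plexus epithelium (ENSMUSG00000061808, chromosome 18, 20665280 to 20674321). Its level, in the order of replicates 1 to 4, was 6.19, 6.94, 9.93 and 32.8 CPM in Control_1d and 773, 7.39, 86.6 and 11.8 CPM in Dnmt3a2_1d. At 5 days it was 10.9, 9.30, 157 and 5.51 CPM in Control_5d and 1253, 6.15, 9.84 and 11.8 CPM in Dnmt3a2_5d. One library of each group stood far above its other 3, in the controls too, and control and Dnmt3a2 libraries overlapped at both days. Scaled to an annotated exon length of 1186 bases, the median of 16 libraries was 8.76 CPM per kb, and Dnmt3a2_5d replicate 1 reached 1056 CPM per kb. Enpp2, with 20.2 CPM per kb at its median, was above Ttr in a typical library, but in Dnmt3a2_5d replicate 1 it stood at 74.9 CPM per kb and Ttr was the higher.

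**Figure D1:**
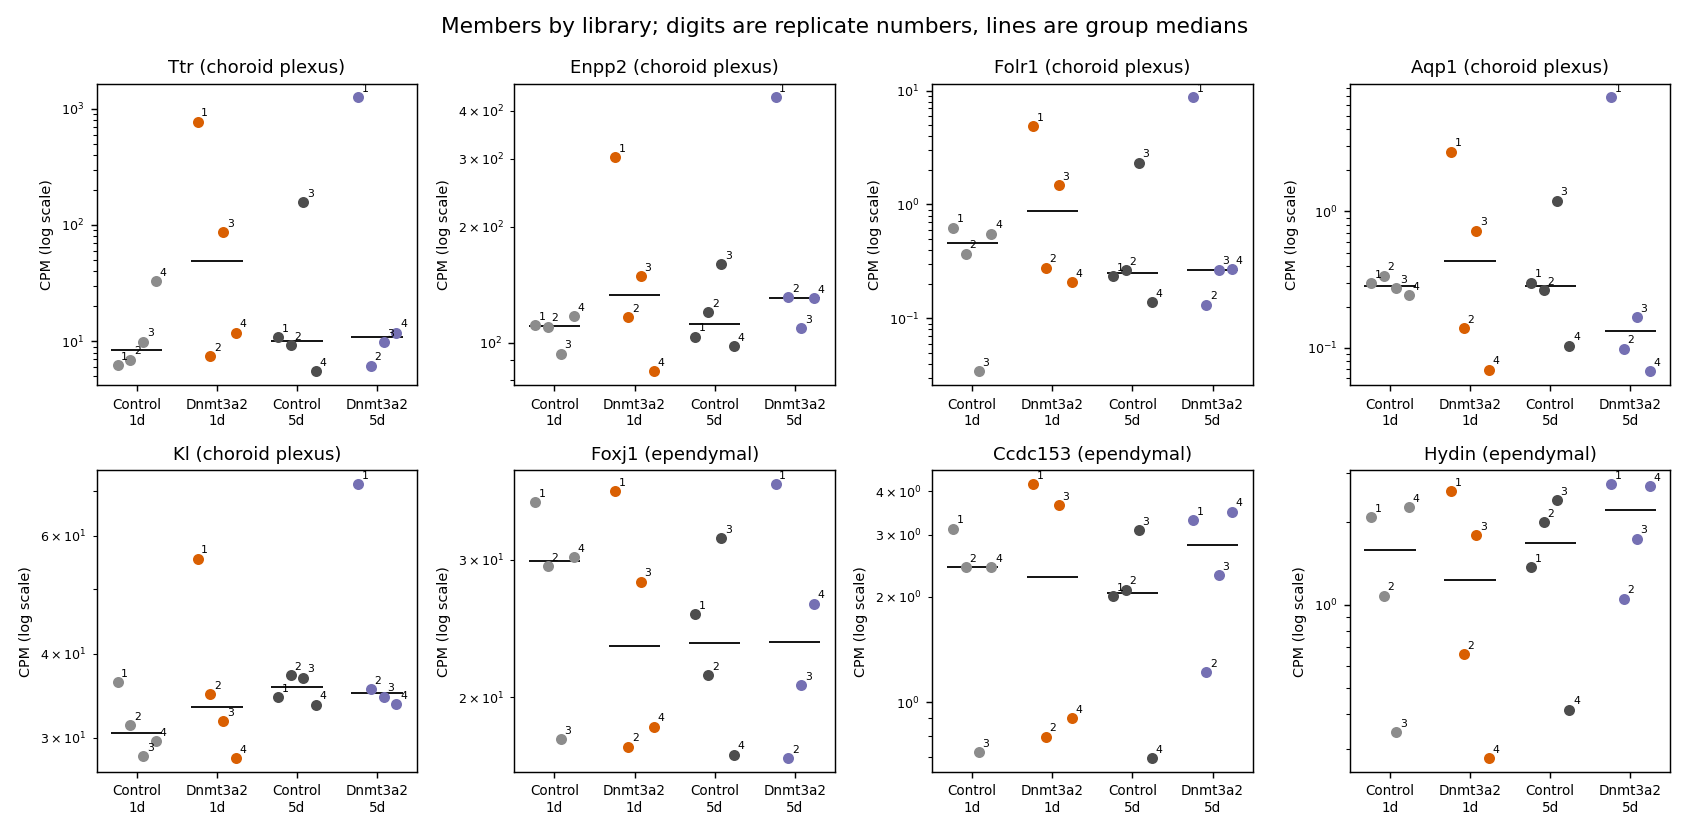
Level in CPM (log axis) of 5 choroid plexus and 3 ependymal genes in each of the 16 libraries, grouped by virus and day, with the replicate number beside each point and a line at the group median. Replicate 1 of Dnmt3a2_1d and of Dnmt3a2_5d stand apart for the choroid plexus genes, as for Ttr at 773 and 1253 CPM, whereas Foxj1, Ccdc153 and Hydin spread over a similar range in all 4 groups.

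Other secreted products followed Ttr with smaller ratios. Enpp2 encodes autotaxin, an enzyme that makes lysophosphatidic acid and is also expressed by oligodendrocytes (ENSMUSG00000022425, chromosome 15, 54838901 to 54952892). It was at 111.1, 110.1, 93.8 and 117 CPM in Control_1d and 303, 116.5, 149 and 84.3 CPM in Dnmt3a2_1d. In Control_5d it was at 104, 120.0, 160.1 and 98.15 CPM, and in Dnmt3a2_5d at 433, 131, 109 and 131 CPM. Apart from the choroid-rich libraries the highest value was that of Control_5d replicate 3, and the groups overlapped at both days. Kl encodes klotho, an anti-ageing co-receptor for FGF23 that neurons express as well (ENSMUSG00000058488, chromosome 5, 150952607 to 150993817). It was at 36.3, 31.3, 28.2 and 29.6 CPM in Control_1d and 55.45, 34.8, 31.8 and 28.0 CPM in Dnmt3a2_1d. It was at 34.45, 37.2, 36.8 and 33.6 CPM in Control_5d and 71.6, 35.4, 34.5 and 33.6 CPM in Dnmt3a2_5d. The other 14 libraries lay within 28.0 to 37.2 CPM, below both choroid-rich ones. Igfbp2, an insulin-like growth factor binding protein, ranged from 20.85 to 29.1 CPM in the other 14 and reached 33.8 and 58.9 CPM. Sostdc1, an antagonist of BMP and Wnt ligands, ranged from 2.32 to 4.57 CPM and reached 10.5 and 12.8 CPM. Lbp, the lipopolysaccharide-binding protein, ranged from 1.55 to 7.15 CPM and reached 11.9 and 14.7 CPM. The coagulation factor gene F5 ranged from 0.137 to 1.83 CPM and reached 4.19 and 10.6 CPM.

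Receptors came next. Folr1 encodes folate receptor alpha, which carries folate across the epithelium into the cerebrospinal fluid (ENSMUSG00000001827, chromosome 7, 101858331 to 101870788). It was at 0.626, 0.371, 0.034 and 0.555 CPM in Control_1d and 4.88, 0.278, 1.48 and 0.208 CPM in Dnmt3a2_1d. It was at 0.234, 0.266, 2.32 and 0.139 CPM in Control_5d and 8.72, 0.132, 0.267 and 0.269 CPM in Dnmt3a2_5d. Control_5d replicate 3 again stood above the other controls, and most other values were within a few times the floor. Folr1 shares sequence positions on the opposite strand with Anapc15, which had a mean of 11.1 CPM, and no source used here says whether counting used strand. Prlr encodes the prolactin receptor (ENSMUSG00000005268, chromosome 15, 10177238 to 10349180). It was at 0.692, 0.809, 0.824 and 1.49 CPM in Control_1d and at 7.66, 1.42, 2.41 and 1.35 CPM in Dnmt3a2_1d. It was at 0.568, 0.93, 2.04 and 0.52 CPM in Control_5d and at 9.91, 1.35, 1.47 and 1.88 CPM in Dnmt3a2_5d. Prlr had group medians of 0.817 against 1.92 CPM at 1 day and 0.749 against 1.68 CPM at 5 days, although 1 control library at each day reached into the Dnmt3a2 range.

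Genes of ion and water transport spanned a wide range of levels. Aqp1, the water channel of the apical membrane (ENSMUSG00000004655, chromosome 6, 55336432 to 55348555), was at 0.2965, 0.337, 0.275 and 0.243 CPM in Control_1d and 2.75, 0.139, 0.723 and 0.0693 CPM in Dnmt3a2_1d. It was at 0.301, 0.266, 1.2 and 0.104 CPM in Control_5d and 6.87, 0.0987, 0.167 and 0.067 CPM in Dnmt3a2_5d. Replicate 1 of Dnmt3a2_5d was the highest of all, the groups overlapped at both days, and several of the low values rest on 3 counts or fewer. Slc4a5, a sodium bicarbonate cotransporter, ranged from 0.0334 to 1.55 CPM in the other 14 libraries and reached 4.47 and 8.09 CPM. Clic6, a chloride intracellular channel family gene, ranged from 0.486 to 3.66 CPM and reached 14 and 18.2 CPM. Car12, a membrane carbonic anhydrase, ranged from 22.7 to 31.3 CPM and reached 34.3 and 34.2 CPM, among the smallest differences of the 22 genes. Cab39l, which encodes a partner of the kinase LKB1, varied least, with a highest library 1.33 times its lowest, and it overlaps Cdadc1 (mean 29.6 CPM) on the opposite strand. Of the tight junction genes, Cldn2 ranged from 0.139 to 1.09 CPM and reached 4.26 and 4.425 CPM, while Cldn1 ranged from 0.312 to 1.39 CPM and reached 1.79 and 1.68 CPM. The remaining genes kept to the same order. Tmem72, a transmembrane protein gene, reached 5.05 and 11.4 CPM over a range of 0.934 to 2.605 CPM in the other 14 libraries. Calml4, a calmodulin-like gene, reached 2.34 and 2.51 CPM over 0.0693 to 0.763 CPM. Steap1 reached 1.065 and 1.35 CPM over 0.0 to 0.317 CPM.

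The transcription factors of the epithelium behaved unequally. Otx2, a homeobox factor needed to form and maintain the choroid plexus (ENSMUSG00000021848, chromosome 14, 48657677 to 48673819), was at 0.56, 0.539, 0.0687 and 1.56 CPM in Control_1d and 4.09, 0.312, 1.17 and 0.0693 CPM in Dnmt3a2_1d. It was at 0.301, 0.664, 1.16 and 0.139 CPM in Control_5d and 6.47, 0.461, 0.40 and 0.706 CPM in Dnmt3a2_5d. The choroid-rich libraries were the highest, and the other values spread over more than an order of magnitude in controls and Dnmt3a2 libraries alike. The lowest of these, 0.0687 and 0.0693 CPM, rest on 3 counts or fewer. Msx1, another homeobox gene, ranged from 3.78 to 6.97 CPM and reached 11.1 and 12.75 CPM. Lmx1a was between 0.0 and 0.404 CPM in the other 14 libraries and at 0.412 and 0.363 CPM in the choroid-rich ones, on 12 and 11 estimated counts.

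**Figure D2:**
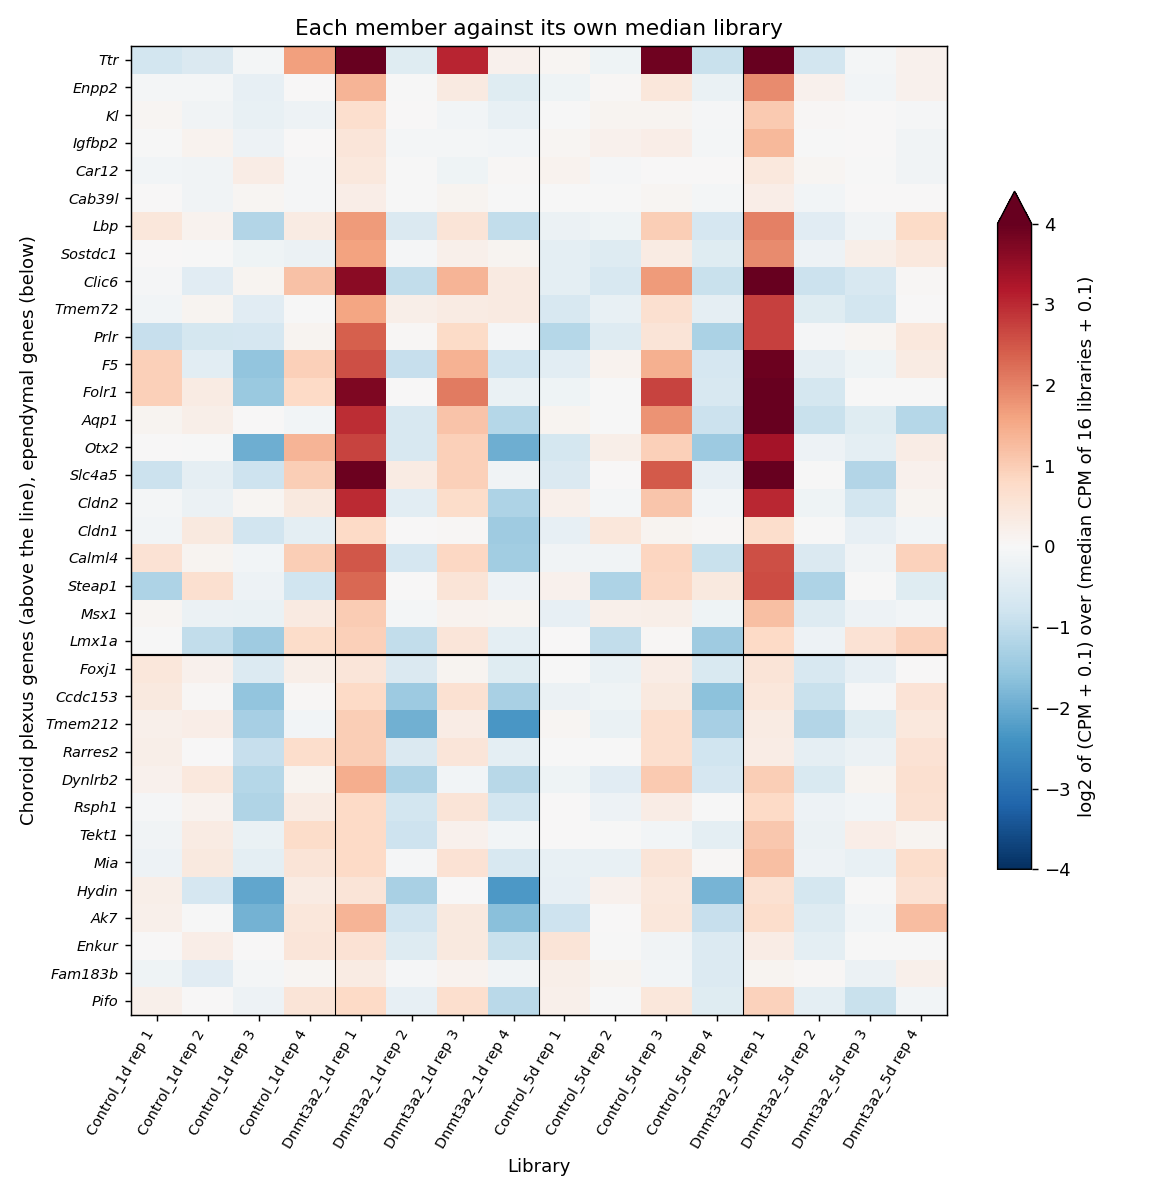
Each of the 35 genes (rows, choroid plexus above the line and ependymal below) in each library (columns), as log2 of CPM + 0.1 over the median of the 16 libraries + 0.1. The colour scale stops at 4 and the 5 cells beyond it reach 6.9. Replicate 1 of Dnmt3a2_1d and of Dnmt3a2_5d are red down the choroid plexus block, with Control_5d replicate 3 and Dnmt3a2_1d replicate 3 paler, and the ependymal block has its lowest cell at -2.34.

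The choroid-rich libraries were not alone in holding such transcripts. Among the other 14, Control_5d replicate 3 was the highest for 12 of 22 choroid plexus genes, Control_1d replicate 4 for 3, and Dnmt3a2_1d replicate 3, Control_5d replicate 2 and Dnmt3a2_5d replicate 4 for 2 each. The summed level of the 22 genes was 473 CPM in Control_5d replicate 3 and 370.1 CPM in Dnmt3a2_1d replicate 3, between the 214 to 279 CPM of the remaining 12 libraries and the 1320 and 2011 CPM of the choroid-rich ones. Over the 14 libraries without the choroid-rich ones, log2 CPM of Ttr and Enpp2 had a Pearson r of 0.65 (permutation p = 0.011, adjusted over 4 pairs 0.015) and a Spearman rho of 0.33 (p = 0.25, adjusted 0.31). For Ttr and Aqp1 the same permutation tests gave 0.75 (p = 0.0041, adjusted 0.0082) and 0.29 (p = 0.31, adjusted 0.31). The rank measure did not pass for either pair. Since the 16 libraries fall into separate clusters of Ttr, correlations with Ttr are given without the choroid-rich libraries.

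The 2 choroid-rich libraries also differed from each other, gene by gene. Of the 22 choroid plexus genes, 19 were higher in Dnmt3a2_5d replicate 1, with a median ratio of 1.29. Ttr was 1.62 times as high (95% interval 1.59 to 1.65, counting error only). F5 at 2.54 (2.05 to 3.15), Aqp1 at 2.50 (1.92 to 3.28) and Tmem72 at 2.26 (1.855 to 2.755) lay above the ratio of Ttr. Cldn2 at 1.04 (0.8075 to 1.34) and Clic6 at 1.3 (1.14 to 1.48) lay below it, and their intervals did not reach it. Ependymal genes went the other way, with 5 of 13 higher in Dnmt3a2_5d replicate 1 and a median ratio of 0.852. Rarres2 was at 0.622 (0.50 to 0.771), Ak7 at 0.633 (0.476 to 0.839) and Tmem212 at 0.607 (0.3885 to 0.9375) of their level in Dnmt3a2_1d replicate 1. One library stands on each side of these ratios, so they compare 2 libraries and not the 2 days.

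**Figure D3:**
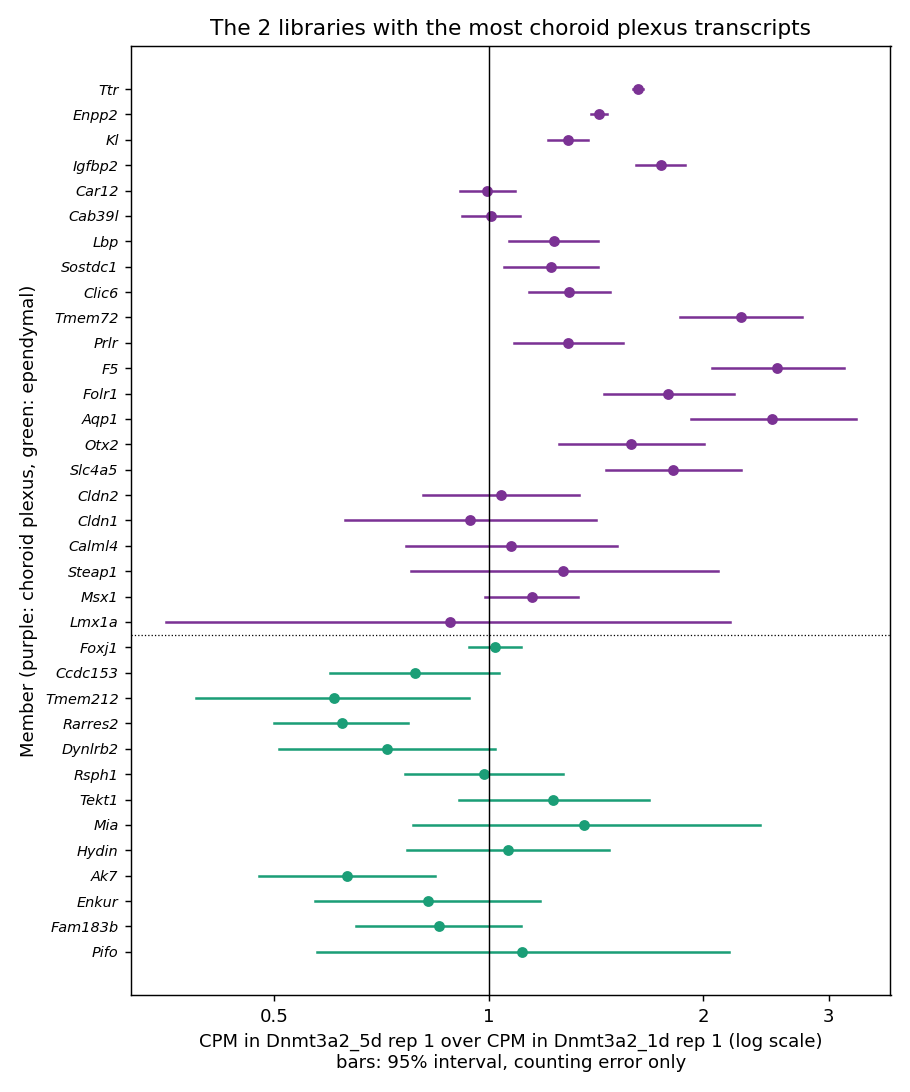
Ratio of CPM in Dnmt3a2_5d replicate 1 to CPM in Dnmt3a2_1d replicate 1 (log axis) for each of the 35 genes, with 95% intervals that cover counting error only. Of the choroid plexus genes (purple) 19 of 22 lie above 1, up to 2.54 for F5, and of the ependymal genes (green) 5 of 13 do, down to 0.607 for Tmem212.

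Ependymal transcripts had a smaller span among libraries, with a median ratio of highest to lowest library of 4.63 over the 13 genes. For the choroid plexus genes it was 15.6, leaving out Steap1 and Lmx1a, whose lowest level was 0.0 CPM. The choroid-rich libraries, picked by the choroid plexus genes, set the upper end of that span. All 13 ependymal genes also had their highest level in one of the choroid-rich libraries. Foxj1, the transcription factor that drives the program for motile cilia (ENSMUSG00000034227, chromosome 11, 116330704 to 116335399), was at 35.6, 29.5, 17.7 and 30.25 CPM in Control_1d and 36.7, 17.3, 28.1 and 18.3 CPM in Dnmt3a2_1d. It was at 25.6, 21.35, 32 and 16.9 CPM in Control_5d and 37.5, 16.7, 20.7 and 26.4 CPM in Dnmt3a2_5d. The lowest library of each group lay between 16.7 and 17.7 CPM and the highest between 32 and 37.5 CPM, so the groups overlapped throughout. Ccdc153, a coiled-coil gene of ependymal cells (ENSMUSG00000070306, chromosome 9, 44240676 to 44247306), was at 3.13, 2.43, 0.721 and 2.43 CPM in Control_1d and 4.19, 0.798, 3.65 and 0.901 CPM in Dnmt3a2_1d. It was at 2.005, 2.09, 3.10 and 0.693 CPM in Control_5d and 3.30, 1.22, 2.30 and 3.5 CPM in Dnmt3a2_5d. The libraries low in Foxj1, namely Control_1d replicate 3, Dnmt3a2_1d replicates 2 and 4, Control_5d replicate 4 and Dnmt3a2_5d replicate 2, were the low ones for Ccdc153 too. Across all 16 libraries log2 CPM of the 2 genes had a Pearson r of 0.89 (permutation p = 3e-05, adjusted 6e-05) and a Spearman rho of 0.84 (p = 9e-05, adjusted 0.00036). Without the 2 libraries farthest from the median of Foxj1, Control_5d replicate 4 and Dnmt3a2_5d replicate 2, they were 0.87 and 0.81.

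Hydin, Tmem212 and Rarres2 were low in these libraries too, but not every ependymal gene was. In Control_5d, Rsph1 was lowest in replicate 2, at 2.06 CPM. Fam183b was lowest in replicate 2 of Control_1d, at 2.43 CPM, and in replicate 3 of Dnmt3a2_5d, at 2.80 CPM. Hydin, a component of the central pair of the axoneme (ENSMUSG00000059854, chromosome 8, 110266977 to 110610253), was at 2.08, 1.08, 0.3435 and 2.255 CPM in Control_1d and 2.58, 0.6595, 1.79 and 0.277 CPM in Dnmt3a2_1d. It was at 1.37, 1.99, 2.39 and 0.416 CPM in Control_5d and 2.74, 1.05, 1.735 and 2.69 CPM in Dnmt3a2_5d. The lowest library for Hydin in each group was one of the 5 low in Foxj1. Tmem212, a transmembrane gene of ciliated cells (ENSMUSG00000043164, chromosome 3, 27866066 to 27896368), was at 1.09, 1.15, 0.309 and 0.867 CPM in Control_1d and 1.96, 0.174, 1.17 and 0.104 CPM in Dnmt3a2_1d. It was at 1.00, 0.764, 1.55 and 0.312 CPM in Control_5d and 1.19, 0.362, 0.634 and 1.28 CPM in Dnmt3a2_5d. Rarres2, which encodes the chemoattractant chemerin (ENSMUSG00000009281, chromosome 6, 48569696 to 48572789), was at 4.55, 3.88, 1.99 and 6.35 CPM in Control_1d and 7.59, 2.53, 5.34 and 2.88 CPM in Dnmt3a2_1d. It was at 3.775, 3.75, 6.2 and 2.18 CPM in Control_5d and 4.72, 2.93, 3.27 and 5.82 CPM in Dnmt3a2_5d. Rarres2 overlaps Lrrc61 (mean 27.4 CPM) on the opposite strand.

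The other ependymal genes stayed low. The radial spoke head gene Rsph1 ranged from 0.962 to 4.225 CPM over the 16 libraries, the adenylate kinase gene Ak7 from 0.378 to 4.43 CPM, the dynein light chain gene Dynlrb2 from 0.347 to 2.75 CPM and the tektin gene Tekt1 from 0.798 to 3.30 CPM. Enkur, which encodes the cilium protein enkurin, ranged from 0.797 to 2.37 CPM, Fam183b, a gene of ciliated cells, from 2.25 to 4.225 CPM, Mia, a small secreted protein gene, from 0.243 to 1.12 CPM and Pifo, a gene of the ciliary base, from 0.104 to 0.726 CPM. Fam183b varied least of the 13, with a highest library 1.88 times its lowest. The lowest library of 16 was Dnmt3a2_1d replicate 4 for 5 of the 13 genes, Control_1d replicate 3 for 3, Control_5d replicate 4 and Dnmt3a2_1d replicate 2 for 2 each, and Dnmt3a2_5d replicate 2 for 1. The highest was Dnmt3a2_1d replicate 1 for 8 and Dnmt3a2_5d replicate 1 for 5, but both lay above all the other 14 for 5 of 13 genes only, against 21 of 22 choroid plexus genes. The median ratios to the other 14 libraries were 1.91 and 1.76.

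**Figure D4:**
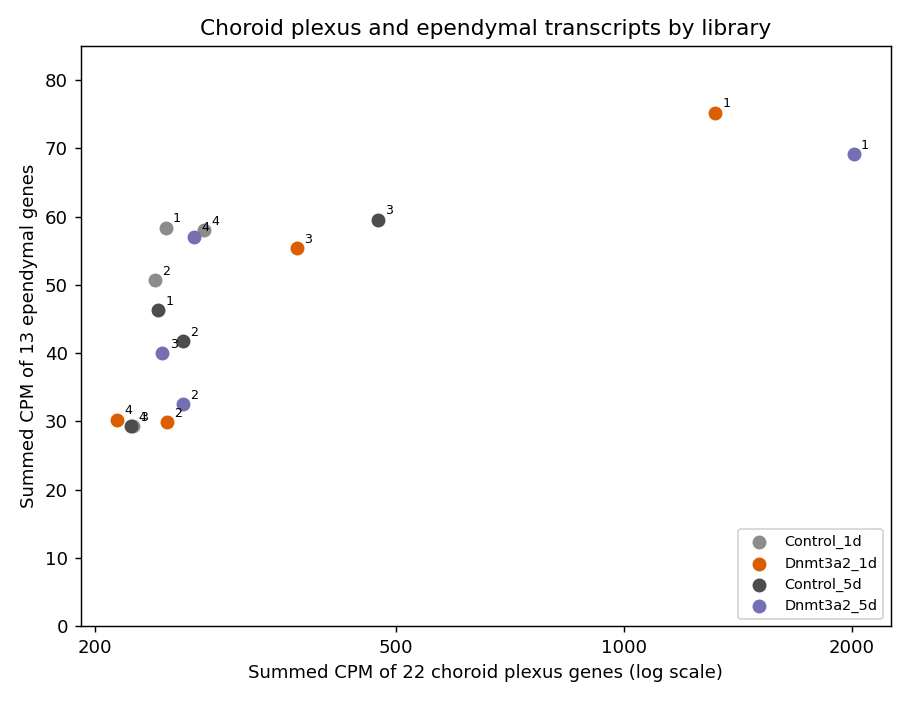
Summed CPM of the 22 choroid plexus genes (horizontal, log axis) against summed CPM of the 13 ependymal genes (vertical) in the 16 libraries, with colours for the 4 groups and replicate numbers beside the points. Replicate 1 of Dnmt3a2_1d (1320 and 75.2 CPM) and of Dnmt3a2_5d (2011 and 69.1 CPM) stand to the right, and the ependymal sum runs from 29.3 to 59.5 CPM among the other 14 libraries.

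The ependymal sum had a similar span in each group, 29.3 to 58.4 CPM in Control_1d, 29.9 to 75.2 CPM in Dnmt3a2_1d, 29.3 to 59.5 CPM in Control_5d and 32.6 to 69.1 CPM in Dnmt3a2_5d. Foxj1, like Ttr, was highest in the choroid-rich libraries. Ttr and Foxj1 over the 14 libraries without the choroid-rich ones had a Pearson r of 0.5 (permutation p = 0.072, adjusted 0.072) and a Spearman rho of 0.49 (p = 0.083, adjusted 0.17).

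Whether Dnmt3a2 changed these genes was asked with edgeR's quasi-likelihood test at each day and over both days. None of the 34 members tested passed a Benjamini-Hochberg adjusted p of 0.05 in any of the 6 comparisons. At 1 day, where 0.0888% of all genes tested were called, 0 members were called, 0 had an unadjusted p under 0.05 (7.17% of all genes did), and DESeq2 called 0 (0.349% of all genes). At 5 days, with 0.32% of genes called, 0 members were called by edgeR or by DESeq2, which called 0.846% of genes. An unadjusted p under 0.05 was found for 2 members, Prlr and Sostdc1, and for 8.01% of all genes. Over both days, with 1.43% of genes called, edgeR called 0 members and 3 had an unadjusted p under 0.05, Prlr, Sostdc1 and Ttr, against 12.1% of all genes. DESeq2 called 1 of the 34, Prlr (DESeq2 adjusted p = 0.0295), and 3.03% of all genes, so the single call is close to the share over all genes. DESeq2 gave no adjusted p for 3, 5 and 4 of the 34 at 1 day, at 5 days and over both days. Those members could not be called by it. Libraries of the 2 groups did not overlap for 1 member at 1 day, Tmem72, against 3.43% of all genes, and for 0 members at 5 days against 6.29% of all genes.

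The direction of the fitted changes was nonetheless one-sided for the choroid plexus genes, and it rested on the choroid-rich libraries. At 1 day all 21 tested choroid plexus genes had a log2 fold change above 0, with a median of 0.76 against 0.003 over all genes, and without the 2 choroid-rich libraries 12 of the 19 that could then be tested were above 0, with a median of 0.05. At 5 days all 21 were above 0 with a median of 1.30 against 0.008 over all genes, and without the 2 libraries 5 of 19 were, with a median of -0.16. Over both days the medians were 1.09 and, without the 2 libraries, -0.12. Ttr had a log2 fold change of 3.98 at 1 day (SE 2.09, edgeR adjusted p = 0.765), and at 5 days it was 2.81 (SE 1.93, edgeR adjusted p = 0.818). Without the 2 libraries it was 1.34 and -2.30. Both were Dnmt3a2 libraries picked for high levels of these genes, so leaving them out lowers the fitted changes by construction. Control_5d replicate 3, at 157 CPM of Ttr, was kept. The remaining Dnmt3a2_5d libraries held 6.15, 9.84 and 11.8 CPM of Ttr, near the 5.51 to 10.9 CPM of the other Control_5d libraries. Enpp2 had 0.595 (SE 0.47) and 0.74 (SE 0.47), and without the 2 libraries 0.11 and 0.04.

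Prlr and Sostdc1 had the smallest p of the members over both days, and their estimates kept their sign at each day without those libraries. Prlr had a log2 fold change of 1.80 over both days (SE 0.57, edgeR adjusted p = 0.175), and without them it was 0.74 (SE 0.28, edgeR adjusted p = 0.26). Sostdc1 had 0.92 (SE 0.34, edgeR adjusted p = 0.268), and without them 0.30 (SE 0.14, edgeR adjusted p = 0.388). Neither passed the test in edgeR.

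**Figure D5:**
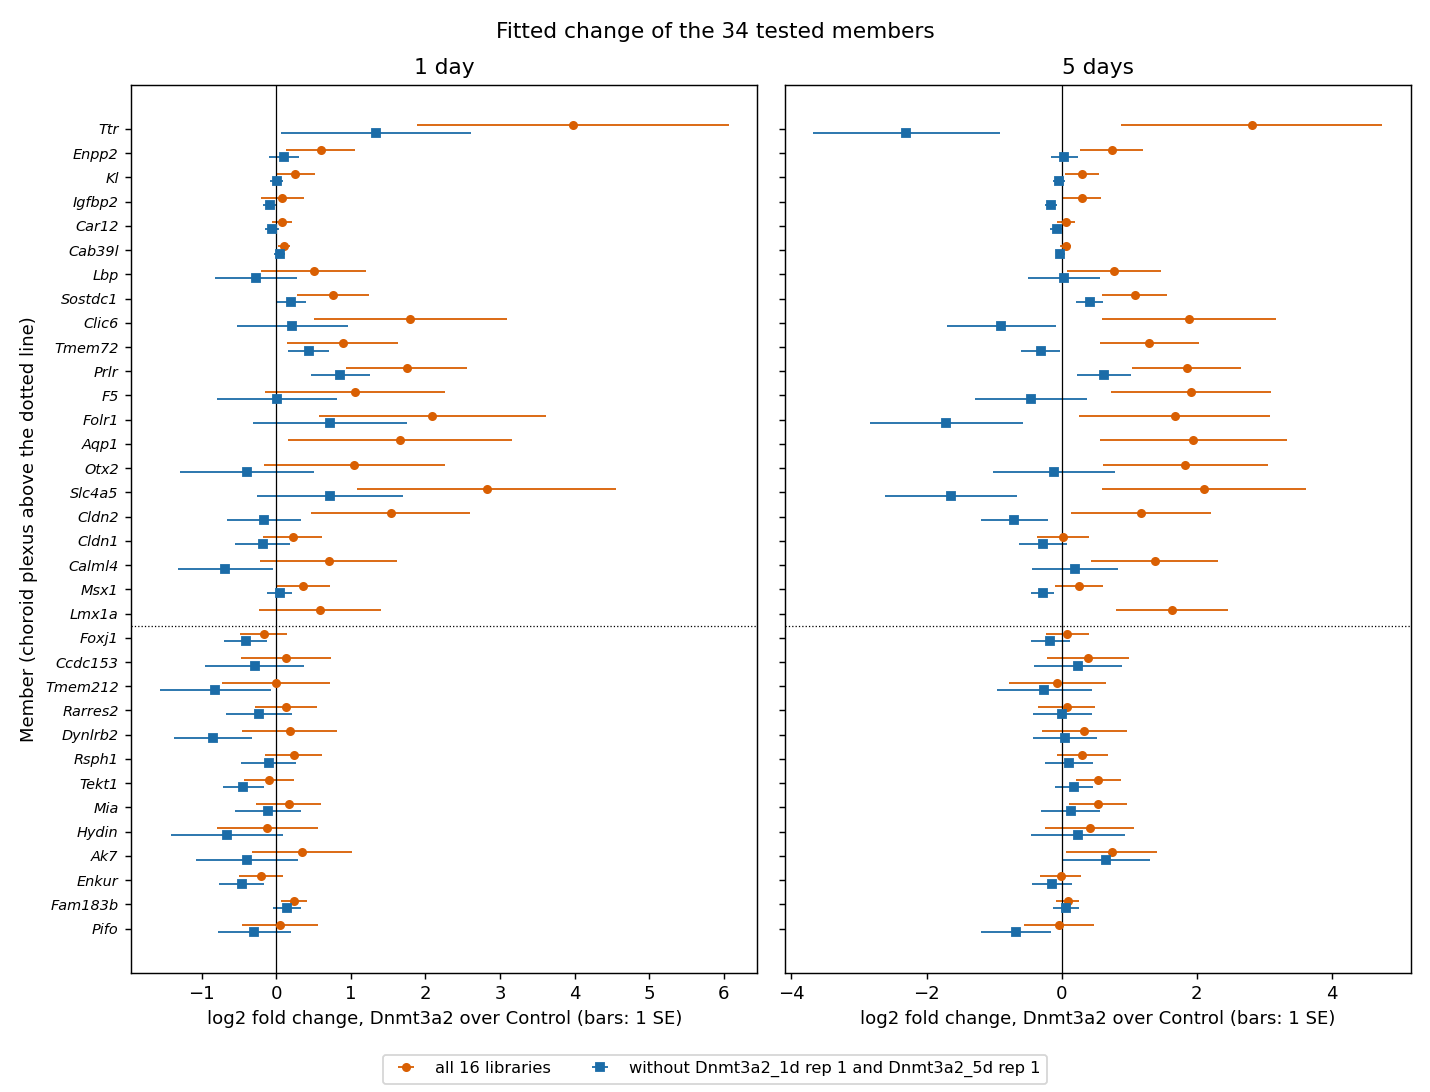
Fitted log2 fold change of Dnmt3a2 over control at 1 day (left) and 5 days (right) for the 34 tested genes, with bars of 1 SE, from all 16 libraries (orange circles) and without the 2 choroid-rich libraries (blue squares). Aqp1 and Lmx1a fell under the count filter without those libraries and have no square. For Ttr the circle lies at 3.98 and 2.81 and the square at 1.34 and -2.30.

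Ependymal genes had medians of 0.13 at 1 day (8 of 13 above 0), 0.30 at 5 days (10 of 13) and 0.16 over both days. Without the choroid-rich libraries these were -0.39 (1 of 13), 0.06 (9 of 13) and -0.13. All 13 genes were highest in a choroid-rich library, and both of those were Dnmt3a2 libraries. Leaving them out thus lowers these fitted changes, too, by construction. Foxj1 averaged 28.25 ± 7.54 CPM in Control_1d, 25.1 ± 9.15 CPM in Dnmt3a2_1d, 23.9 ± 6.42 CPM in Control_5d and 25.3 ± 9.03 CPM in Dnmt3a2_5d (SD, n = 4 each). Its log2 fold change was -0.17 (SE 0.32, edgeR adjusted p = 0.96) at 1 day and 0.08 (SE 0.32, edgeR adjusted p = 0.98) at 5 days.

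Between days, 0 members passed edgeR's test or DESeq2's within either virus group or in the comparison of the Dnmt3a2 effect at 5 days with that at 1 day, where 0.0% of all genes were called in each, and 0 members had an unadjusted p under 0.05. Over all genes, 10.8%, 3.54% and 2.13% had an unadjusted p under 0.05 and DESeq2 called 0.26%, 0.0% and 0.00592% between days with Dnmt3a2, between days in controls, and for the difference. DESeq2 gave no adjusted p for 28 of the 34 members between the days of the Dnmt3a2 groups, and for 3 each between the days in controls and for the difference. Groups of the 2 days did not overlap for 0 members, against 5.17% of all genes in the Dnmt3a2 groups and 2.4% in the controls. The median log2 change from 1 to 5 days was 0.30 for choroid plexus genes in the Dnmt3a2 groups and 0.07 in the controls, and 0.11 and -0.09 for ependymal genes. The difference between the days had a median of 0.10 for choroid plexus genes and 0.18 for ependymal genes. For Ttr that difference was -1.17 (SE 2.66, edgeR adjusted p = 1.0).

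Other genes of the same tissues were read from wider lists. Of 50 further choroid plexus genes, 49 were measured and 44 tested, and edgeR called 0 of them at either day or over both days. An unadjusted p under 0.05 was found for 4, 2 and 9 of the 44, against 7.17%, 8.01% and 12.1% of all genes. Over both days DESeq2 called 3.03% of all genes and 1 of these, the sodium iodide symporter gene Slc5a5. Their mean deviation in log2 CPM from each gene's mean over libraries was 0.90 and 1.10 in the choroid-rich libraries and -0.38 to 0.26 in the others. Their summed level, which a few abundant genes set, was 3605 and 3790 CPM against 3226 to 3710 CPM in the others, so the sum placed Dnmt3a2_1d replicate 1 within their range. Of 108 further genes of cilia, 105 were measured and 100 tested. edgeR called 0 of these at 1 day, 1 at 5 days and 2 over both days, against 0.0888%, 0.32% and 1.43% of all genes. Among these Dnah1, an axonemal dynein heavy chain, fell at 5 days from 8.09 ± 0.458 to 4.81 ± 0.294 CPM (n = 4 each, log2 -0.75, SE 0.15, edgeR adjusted p = 0.0299). It was at 7.495 ± 0.971 and 5.53 ± 1.58 CPM at 1 day, and its change over both days was -0.59 (SE 0.11, edgeR adjusted p = 0.00485). Every Dnmt3a2_5d library, at 4.755, 4.44, 4.905 and 5.14 CPM, lay below every Control_5d library, at 8.65, 8.23, 7.89 and 7.59 CPM. Fhad1, a forkhead-associated domain gene, rose over both days (log2 0.47, SE 0.09, edgeR adjusted p = 0.01), from 4.85 ± 0.637 to 6.36 ± 0.71 CPM at 1 day and from 5.28 ± 0.618 to 7.70 ± 0.999 CPM at 5 days. Dnah1 was low in libraries low in Foxj1 as well. It was at 7.42, 4.37, 6.23 and 4.09 CPM in Dnmt3a2_1d, lowest in replicates 2 and 4, and its lowest library in each group was one of the 5 low in Foxj1. Across groups at 5 days the order differed, since Control_5d replicate 4, low in Foxj1, held 7.59 CPM of Dnah1 and Dnmt3a2_5d replicate 1, highest in Foxj1, held 4.755 CPM. The part of ependymal transcript in the change of Dnah1 was not tested. The summed level of the 105 genes of cilia ran from 290.8 CPM in Control_1d replicate 3 to 442.5 CPM in Dnmt3a2_1d replicate 1.

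Genes of other tissue were set beside these. The 25 measured genes of meninges and stroma summed to 332 to 536 CPM, with the highest value in Control_1d replicate 4, and the choroid-rich libraries held 445.5 and 459 CPM, within the range of the others. On the mean deviation in log2 CPM they stood at 0.13 and 0.28 against -0.30 to 0.24 in the others, so Dnmt3a2_5d replicate 1 was then the highest of 16. The part of these genes in the results was not tested. The 32 interferon response genes summed to 692 CPM in Control_1d replicate 1, 772 CPM in Dnmt3a2_1d replicate 1 and 736 CPM in Dnmt3a2_5d replicate 1, and to 289.5 to 434 CPM in the other 13 libraries. Their mean deviations were 0.645, 0.76 and 1.13 in those 3 and -0.45 to 0.10 in the other 13. They thus stood high in both choroid-rich libraries and in 1 control library that was not choroid-rich, and their part in the results was not tested. Astrocyte genes summed to 4096 to 5049 CPM, the highest in Dnmt3a2_1d replicate 1 and the next, 5025 CPM, in Dnmt3a2_1d replicate 4. Neocortex genes summed to 366.4 and 384.6 CPM in the choroid-rich libraries, below the 384.8 to 545.5 CPM of the others. Their mean deviations were -0.295 and -0.153 against -0.288 to 0.344, so Dnmt3a2_5d replicate 1 was then within the range. The part of neocortex genes in the results was not tested. Of the hippocampal and neighbouring lists, called genes were Calb1 at 1 day (log2 0.39) and 5 days (0.35) and C1ql2 at 5 days (-0.60), both of dentate granule cells, and over both days these 2 with Dsp (-0.24) of dentate granule cells, Slc1a3 (0.19) of astrocytes, Pou3f1 (-0.19) of CA1 and Scnn1a (-0.28) of neocortex. Of 12 dentate granule genes tested, edgeR called 1, 2 and 3 at 1 day, at 5 days and over both days. Over both days it called 1 of 15 astrocyte, 1 of 9 CA1 and 1 of 14 neocortex genes tested. The shares over all genes were 0.0888%, 0.32% and 1.43% at 1 day, at 5 days and over both days. DESeq2 called 5 dentate granule, 2 astrocyte, 3 CA1 and 2 neocortex genes over both days, against 3.03% of all genes. Wfs1 was among the 3 of CA1. Over both days edgeR called 0 genes of CA3 (9 tested), thalamus and habenula (13), meninges and stroma (24) or interferon response (31). An unadjusted p under 0.05 was found for 2, 2, 2 and 3 of them, against 12.1% of all genes. DESeq2 called 1 of them, St18 of CA3, against 3.03% of all genes.

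Genes whose log2 CPM followed Ttr most closely were looked for among the 14240 tested genes averaging 1 CPM or more. Of the 20 closest, 9 were members of the choroid plexus or ependymal list, and 27 members were among the genes ranked. The 10 closest genes that were not members were Mfrp, Abca4, Kcnj13, Rdh5, Slc4a2, Slc13a4, Sulf1, Plod3, Ace and A2m. Genes were ranked by Pearson r over all 16 libraries, an order in which the choroid-rich ones weigh heavily. The count of 9 therefore largely reflects the choroid-rich libraries and carries no test. Over the 14 libraries without the choroid-rich ones, r of these 10 genes was 0.92 down to 0.59. These values are descriptions, since all genes share the same libraries and depth. Mfrp and Kcnj13 had medians of 0.255 and 0.104 CPM in those 14 libraries and reached a mean of 1 CPM through the choroid-rich ones. The same held for some members, such as Folr1 and Slc4a5, with medians of 0.268 and 0.185 CPM in those 14 libraries. Mfrp, a membrane frizzled-related protein gene, was at 10.8 and 19.7 CPM in the choroid-rich libraries and at 0.0332 to 2.15 CPM in the others, and it shares its strand and position with C1qtnf5 (mean 5.64 CPM). Kcnj13, an inward rectifier potassium channel gene, was at 5.60 and 9.87 CPM against 0.0334 to 1.9 CPM, and lies opposite Gigyf2 (mean 54.6 CPM). Ace, the angiotensin-converting enzyme gene, was at 18.1 and 31.0 CPM against 7.76 to 11.4 CPM. Abca4, known as the retinoid transporter of photoreceptors, was at 3.37 and 6.57 CPM against 0.381 to 1.655 CPM. Rdh5, Slc4a2 and Plod3 overlap Bloc1s1, Fastk and Znhit1, and their counts may hold reads of these neighbours. The 5 genes closest to Foxj1 were Anxa2, Aldh3b1, 2410004P03Rik, Odf3b and Cd24a, with r of 0.95 down to 0.90, and 4 of the 20 closest were members. Cd24a, a surface marker of ependymal cells among others, ranged from 4.235 to 10.9 CPM and Odf3b, a gene of the cilium, from 0.893 to 4.33 CPM.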

How the data were processed

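Total RNA of mouse dorsal hippocampus was sequenced on a BGISEQ-500, and 500 ng per library was used, per the labels. Build GRCm38.p6, kallisto 0.4.6, Trim Galore 0.6.4 and edgeR 3.17 appear in the submitters' processing notes. Summing of transcripts to genes, strand and annotation release: not given in the sources used here. The deposited expected counts are estimated counts per Ensembl gene, not normalised, and 26.0% of values are not whole. The deposited log2 values are the authors' log2 CPM for 16907 genes and were used as a check only: they differed from edgeR's log2 CPM of the counts by at most 5.33e-15.

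The counts, rounded to whole numbers, passed filterByExpr by group and TMM scaling and were fitted for all 16 libraries with a robust quasi-likelihood model of group (edgeR 4.0.16, R 4.3.3). A gene was called when its p, adjusted by Benjamini-Hochberg over 16899 genes, was under 0.05. The SE beside a log2 fold change was derived from the test. It is the size of the change divided by the square root of the F statistic. Totals of 28.6 to 30.0 M give a floor of 3 counts, and intervals and floors cover counting error only. Symbols, positions and lengths came from GENCODE M21, which named 55144 of 55385 identifiers. Correlations used two-sided permutation tests with 100000 resamples (Python 3.11.15, SciPy 1.17.1). Library pairs within groups were checked for duplicates (chi-square per gene 4.45 to 34.1 over 24 pairs). The fit was also run on simulated counts, with an outcome not given here. Changed genes were raised in all libraries of a group, so that run does not bear on genes high together in single libraries.

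Members and lists were chosen with earlier results of these data known. All 35 members are accounted for, with values in every library for Ttr, Enpp2, Kl, Folr1, Aqp1, Otx2, Foxj1, Ccdc153, Tmem212, Rarres2 and Hydin. Prlr was added after its values were seen, as were Slc5a5 and St18. Members of other lists were named where called, with 10 genes closest to Ttr and 5 closest to Foxj1. Alternatives were DESeq2 1.42.0 (its size factors, and its Wald test), the fit with no filter on low counts, a minimum mean of 1 CPM, only the groups compared, the replicate number as a block, each library left out, the 2 choroid-rich libraries left out, and log2(CPM + 1) for correlations.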

Additional observations from a re-analysis of the deposited data

Results flagged for a closer look

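Within groups of 4 libraries, a library was picked out where its gap to the nearest other took more of the group's range than Dixon's 95% critical value allows. Of 140 gene and group combinations 34 were picked out, all for a choroid plexus gene, none for an ependymal gene and all on the high side. Dixon's value picks out about 1 in 20 such groups where values follow a normal distribution. The rate for CPM, which was not put on a log scale here, was not computed. The choroid-rich libraries had already been picked by these levels, and members share the same libraries. The count of 34 therefore carries no test.

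Dnmt3a2_5d replicate 1 stood apart for 16 genes. It held 1253 CPM of Ttr, 433 CPM of Enpp2, 71.6 CPM of Kl, 58.9 CPM of Igfbp2, 12.8 CPM of Sostdc1 and 18.2 CPM of Clic6. Of Tmem72 it held 11.4 CPM, of Prlr 9.91 CPM, of F5 10.6 CPM, of Folr1 8.72 CPM, of Aqp1 6.87 CPM and of Otx2 6.47 CPM. Of Slc4a5 it held 8.09 CPM, of Cldn2 4.425 CPM, of Steap1 1.35 CPM and of Msx1 12.75 CPM.

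Dnmt3a2_1d replicate 1 stood apart for 9 genes. It held 773 CPM of Ttr, 33.8 CPM of Igfbp2, 10.5 CPM of Sostdc1, 5.05 CPM of Tmem72 and 7.66 CPM of Prlr. It also held 4.47 CPM of Slc4a5, 4.26 CPM of Cldn2, 1.065 CPM of Steap1 and 11.1 CPM of Msx1.

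Control libraries were picked out as well. Control_5d replicate 3 stood apart for Ttr at 157 CPM, Sostdc1 at 4.26 CPM, Clic6 at 3.66 CPM, Folr1 at 2.32 CPM and Slc4a5 at 1.55 CPM. Control_1d replicate 4 stood apart for Ttr at 32.8 CPM, Prlr at 1.49 CPM and Slc4a5 at 0.486 CPM, and Control_1d replicate 3 for Car12 at 31.3 CPM.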

How the results depend on the processing

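No member was called by edgeR under any alternative, and DESeq2's Wald test called 1 (Prlr) over both days. The direction of the choroid plexus genes depended on the choroid-rich libraries: without both, their median log2 change was -0.16 at 5 days and -0.12 over both days. With each library left out it was 0.05 to 1.03 at 1 day, -0.16 to 1.67 at 5 days, 0.30 to 1.31 over both days and -0.98 to 1.09 from 1 to 5 days with Dnmt3a2. The values -0.16 and -0.98 were those without Dnmt3a2_5d replicate 1. Ependymal medians had no steady sign at 1 day and over both days, and stayed positive at 5 days. With each library left out they were -0.39 to 0.36 at 1 day, 0.06 to 0.45 at 5 days and -0.08 to 0.28 over both days. Without Dnmt3a2_1d replicate 1 they were -0.39 at 1 day and -0.08 over both days, at 1 day they were -0.11 without Dnmt3a2_1d replicate 3 and -0.10 without Control_1d replicate 3, and at 5 days 0.06 without Dnmt3a2_5d replicate 1 and 0.10 without Control_5d replicate 4. Counts of genes called were 15 at 1 day, 54 at 5 days, 241 over both days, and 0 from 1 to 5 days with Dnmt3a2, in controls and for the difference. DESeq2's Wald test called 59, 143, 512, 44, 0 and 1, no filter gave 34 at 1 day and 6 from 1 to 5 days with Dnmt3a2, the groups compared alone gave 7 at 1 day and 94 at 5 days, and 90 were called at 5 days without the choroid-rich libraries. With each library left out, counts were 6 to 22, 22 to 82, 121 to 272 and, with Dnmt3a2 between days, 0 to 1. The lowest came without Control_1d replicate 2 at 1 day, Dnmt3a2_5d replicate 4 at 5 days and Control_5d replicate 4 over both days, and the highest at 5 days came without Control_1d replicate 3. The cause was not tested. The comparisons over both days and of the difference need all groups and were not run on the groups compared alone. Of 24 same-numbered pairs of libraries, 8 had a correlation over 0.1 (-0.086 to 0.38), and 6 of 16 libraries correlated best with their own number. The highest correlations were among replicate 1 libraries. They were 0.38 for Dnmt3a2_1d with Dnmt3a2_5d, 0.273 for Control_1d with Dnmt3a2_1d and 0.223 for Control_1d with Dnmt3a2_5d. No level expected without pairing was computed, so whether replicate numbers pair the libraries was not tested. With the replicate block 17, 65 and 295 genes and 0 members were called, and choroid plexus medians were 0.56, 0.54 and 0.67. At 3 counts or fewer, several values of Aqp1, Slc4a5, Steap1 and Lmx1a cannot show a difference. The lowest values of Folr1, Otx2, Calml4, Tmem212 and Pifo also rest on 3 counts or fewer.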

Other observations

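Levels per annotated exon length gave another order of the members. At the median of 16 libraries Enpp2 (20.2 CPM per kb), Igfbp2 (13 CPM per kb) and Foxj1 (9.90 CPM per kb) stood above Ttr (8.76 CPM per kb). In Dnmt3a2_5d replicate 1 Ttr (1056 CPM per kb) stood above Enpp2 (74.9 CPM per kb), Igfbp2 (31.9 CPM per kb) and Foxj1 (14.3 CPM per kb). Dnmt3a, the gene delivered by the virus, was lowest among the Dnmt3a2 libraries in the choroid-rich ones within each day, at 623 CPM in Dnmt3a2_1d replicate 1 against 982 to 1153 CPM in the other 3, and at 1015 CPM in Dnmt3a2_5d replicate 1 against 1136 to 1249 CPM. Any tie between the 2 measures was not tested.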
